A study of Mus musculus with 8 samples.

Results

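The 10 genes described here carry out antigen presentation by MHC class I, and were taken by symbol from the 56748 genes of the deposited table. They are the heavy chain genes H2-K1 and H2-D1, the light chain gene B2m, the peptide transport and loading genes Tap1, Tap2 and Tapbp, the immunoproteasome genes Psmb8, Psmb9 and Psmb10, and the regulator gene Nlrc5. All 10 symbols were found. Of these, 9 passed the filter (1 FPKM or more in no fewer than 2 libraries), as did 11818 genes of the whole table, and each of the 9 was above 1 FPKM in every library. H2-K1 did not pass and was not tested.

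Class I molecules carry short peptides from the inside of a cell to its surface, where CD8 T cells read them. The peptides are cut by the proteasome, in which Psmb8, Psmb9 and Psmb10 can replace the constitutive catalytic subunits Psmb5, Psmb6 and Psmb7, and are pumped into the endoplasmic reticulum by the transporter made of Tap1 and Tap2. There tapasin, encoded by Tapbp, holds the empty heavy chain with its light chain, beta-2 microglobulin, next to the transporter until a peptide is bound. In many cells interferons raise most of these genes together, and Nlrc5 is a transactivator that acts on the promoters of several of them. FPKM, the unit used here, is the number of fragments divided by the length of the gene and the size of the library, so levels of different genes can be set side by side.

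The study asked what the loss of glucose uptake does to cells that carry an activated Jak2 kinase. Poly(A) RNA was sequenced from 32D, a mouse bone marrow line described as myeloblast-like that needs interleukin-3 to grow. All cells had been transduced, with murine Jak2WT or with Jak2V617F, the activated form found in myeloproliferative neoplasms. In each background there were 2 GLUT1/3 WT clones and 2 GLUT1/3 dKO clones, in which Slc2a1 and Slc2a3, the genes of the glucose transporters GLUT1 and GLUT3, had been edited with CRISPR-Cas9. The clones of every group are numbered 1 and 3, which makes 8 libraries in 4 groups, and all were held for 24 h in 5 mM glucose, 1 mM glutamine and 2 ng/ml interleukin-3. Each background goes back to a transduced line that was cloned before editing, so a difference between the backgrounds cannot be told apart from a difference between those lines. By the study's record of the edits the dKO clones of a background share the same GLUT1 deletion, so their independence is not established, and the p-values measure the spread between these clones.

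Reads recovered on genes ranged from 16846011 to 48884329 per library. Slc2a1 lay between 44.7 and 64.0 FPKM in the 4 GLUT1/3 WT libraries and between 9.17 and 17.3 FPKM in the 4 dKO libraries, while Slc2a3 was at 49.5 FPKM in Jak2WT GLUT1/3 dKO clone 3 and at 16.0 to 48.2 FPKM in the other dKO libraries, against 91.9 to 198 FPKM in the GLUT1/3 WT libraries. Jak2 was higher in the Jak2WT libraries, at 218 to 258 FPKM, than in the Jak2V617F libraries, at 139 to 165 FPKM. Of 12 markers of myeloid progenitors, Kit and Cebpa were at 0 in every library and Mpo, Elane, Ctsg and Cd34 were under 1 FPKM, whereas the interleukin-3 receptor chain gene Csf2rb was at 48.9 to 190 FPKM. With each library scaled to the same summed FPKM, the median over all genes moved from 0.01 to -0.12 for Jak2V617F against Jak2WT among GLUT1/3 WT clones and from -0.04 to 0.12 for the interaction. The share of called genes that were higher moved with it, from 50.7% to 29.4% and from 44.4% to 75% respectively, and it moved from 55.7% to 33.9% for dKO in Jak2WT and from 45.7% to 60.2% for dKO in Jak2V617F.

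The 10 genes did not move as a block. Among GLUT1/3 WT clones, Jak2V617F cells had more H2-D1, B2m, Tap1, Tap2, Psmb8, Psmb9 and Nlrc5 mRNA than Jak2WT cells and less Tapbp and Psmb10. Loss of GLUT1 and GLUT3 was accompanied by higher Nlrc5 and Psmb10 in both backgrounds, by higher B2m and H2-D1 in Jak2WT, and by lower Tap1, Tap2 and Psmb9 in Jak2V617F. In these counts a gene is called at an adjusted p under 0.05 from limma, a linear model that shares information on the spread across genes, with Benjamini-Hochberg adjustment over all 11818 genes. Values are differences of log2(FPKM + 1), a scale that understates changes of genes near 1 FPKM. With 2 clones against 2 an exact two-sided permutation test of a single gene cannot go below 0.333. Every call therefore rests on the model. Its spread joins that of the gene over the 4 groups with that shared across genes.

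In Jak2WT, 4 of the 9 tested genes were higher in dKO and the other 5 did not pass, where 7.62% of all tested genes were higher and 6.06% lower. Their median difference was 0.30, against 0.01 over all tested genes. In Jak2V617F, 2 were higher in dKO, 3 were lower and 4 did not pass, where 13.7% of all tested genes were higher and 16.2% lower, and their median was -0.23 against -0.02. Between the backgrounds, 7 were higher and 2 lower in Jak2V617F among the GLUT1/3 WT clones, where 15.3% of all tested genes were higher and 14.9% lower, and the median was 1.07 against 0.01. Among the dKO clones 3 were higher in Jak2V617F and 6 did not pass, where 7.12% of all tested genes were higher and 9.96% lower, with a median of 0.32 against -0.02. Each group enters 2 of these comparisons, so a low or high group appears in both, and the values are given side by side and not as separate evidence.

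**Figure D1:**
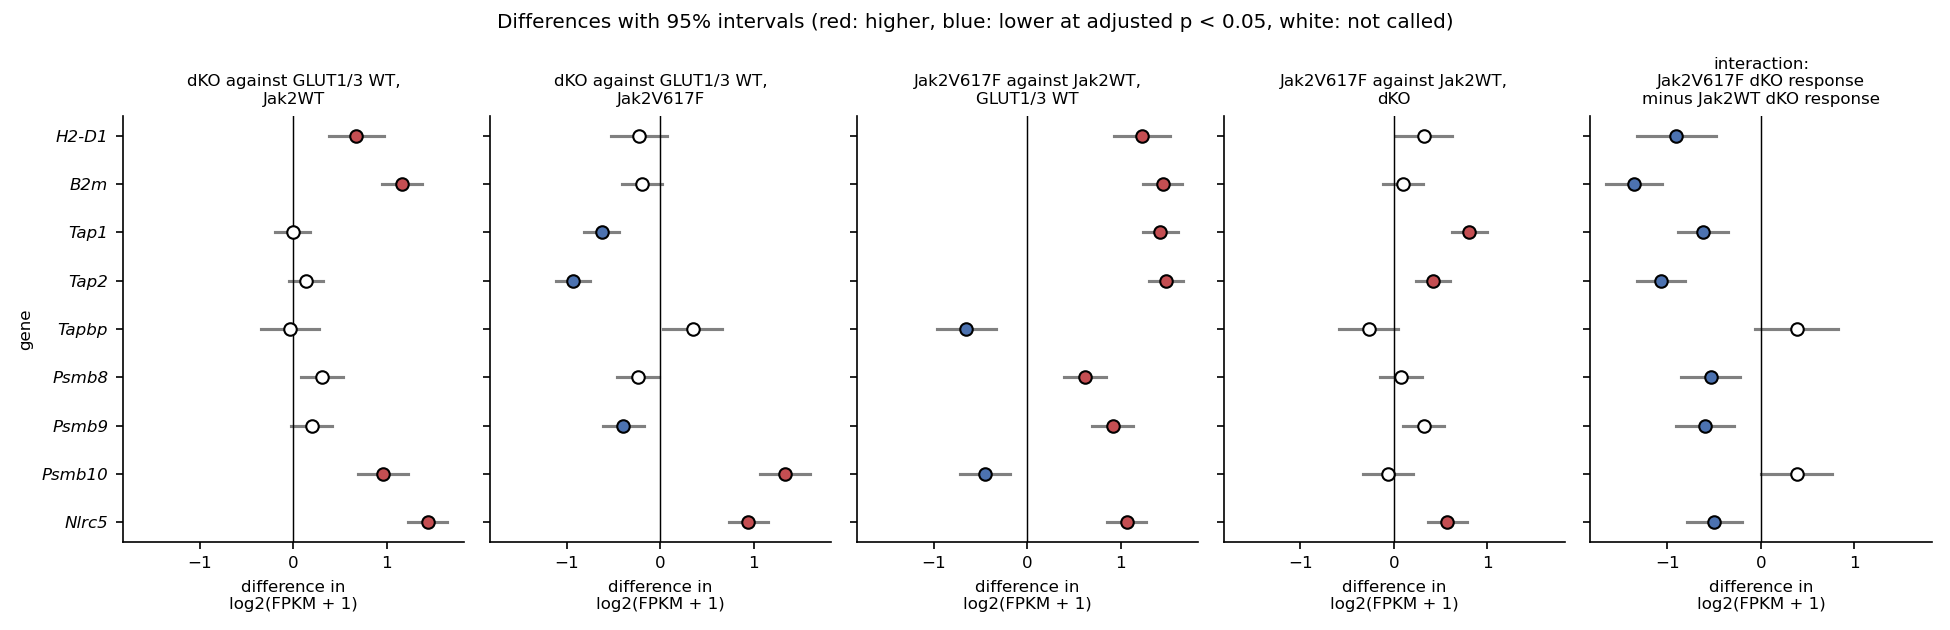
Differences in log2(FPKM + 1) with 95% intervals (x axis) of the 9 tested genes (rows) in the 4 comparisons and the interaction, with n = 2 clones a group. Red points are higher and blue points lower at an adjusted p under 0.05 from limma, and white points did not pass. Psmb10 and Nlrc5 are red in both dKO panels, Tap1, Tap2 and Psmb9 are blue for dKO in Jak2V617F, and Tapbp and Psmb10 are blue for Jak2V617F among GLUT1/3 WT clones.

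The heavy chain gene H2-D1 (ENSMUSG00000073411, GRCm39 chromosome 17, 35481706 to 35486475, forward strand) encodes a classical class I molecule. Its level was 7.74 and 5.70 FPKM in Jak2WT GLUT1/3 WT clones 1 and 3, 11.4 and 11.1 in Jak2WT dKO, 17.2 and 16.6 in Jak2V617F GLUT1/3 WT, and 13.5 and 15.0 in Jak2V617F dKO. The Jak2WT GLUT1/3 WT clones were the lowest and differed from each other the most, and no groups overlapped. H2-D1 was higher in dKO in Jak2WT by 0.68 (SE 0.127, limma adjusted p = 0.0182), and lost this call without Jak2WT GLUT1/3 WT clone 3, where the difference was 0.48, or without either Jak2WT dKO clone, at an adjusted p of up to 0.0995. The call was also lost with all libraries kept and no filter on low values (adjusted p = 0.0647). In Jak2V617F it differed by -0.23 (SE 0.127, limma adjusted p = 0.21). Jak2V617F exceeded Jak2WT by 1.23 among GLUT1/3 WT clones (limma adjusted p = 0.00108), and by 0.32 among dKO clones, where the 95% interval ran from 0.02 to 0.62 and the adjusted p was 0.134.

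H2-K1 (ENSMUSG00000061232, chromosome 17, 34214991 to 34219321, reverse strand), the other classical heavy chain gene of the set, was listed at 0 to 0.0783 FPKM, which came to at most 8 reads in a library. This was far below H2-D1 and is not read as a level of the protein or of the allele. The line 32D was derived from C3H mice, the reads were aligned to the C57BL/6J reference, and class I heavy chain genes differ between these strains and share sequence with each other. How the reads of these genes were divided among H2-K1, H2-D1 and their relatives was not tested, so the levels of the heavy chain genes and their differences between groups are uncertain.

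The light chain gene B2m (ENSMUSG00000060802, chromosome 2, 121978167 to 121983564, forward strand) was the most abundant of the 10 genes in every library. It stood at 210 and 228 FPKM in Jak2WT GLUT1/3 WT, 506 and 477 in Jak2WT dKO, 613 and 585 in Jak2V617F GLUT1/3 WT, and 499 and 551 in Jak2V617F dKO. The Jak2WT GLUT1/3 WT clones were far below the other 6 libraries, and the dKO clones of the 2 backgrounds overlapped. B2m was higher in dKO in Jak2WT by 1.16 (SE 0.091, limma adjusted p = 0.00162), and the difference in Jak2V617F was -0.19 (SE 0.091, adjusted p = 0.151). Among GLUT1/3 WT clones it was higher in Jak2V617F by 1.45 (SE 0.091, limma adjusted p = 0.00017), and among dKO clones the difference was 0.09, with a 95% interval from -0.12 to 0.31. The ratio of H2-D1 to B2m FPKM was 0.0309 ± 0.00837, 0.0228 ± 0.000511, 0.0282 ± 0.000255 and 0.0272 ± 5.94e-05 (mean ± SD, n = 2 clones) in the groups in the same order. The Jak2WT GLUT1/3 WT clones were at 0.0369 and 0.0250, a range that held the ratios of the 4 Jak2V617F libraries, and both Jak2WT dKO clones lay below it, at 0.0225 and 0.0232.

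Promoter sequences are shown for 4 of the genes, from the heavy chain, the light chain, the transporter and the immunoproteasome, because the factors that act on class I promoters read short motifs in them. The windows run from 250 bases before to 50 bases after the start of the gene in the RefSeq annotation of GRCm38.p6, an earlier build than the GRCm39 of the expression table, and are written on the strand of the gene. RefSeq windows were matched by symbol for 8 of the 10 genes, not for Tap2 or Nlrc5. Capitals mark every match, on either strand, to an interferon-stimulated response element core (GAAA, any 2 bases and GAAA), a gamma-activated site (TTCNNNGAA), the core of a cyclic AMP response element (TGACG), a Y box (CCAAT) or an NF-kB type motif (GGGA, any 4 bases and CC), and overlapping matches run together.
H2-D1, chr17:35262844-35263143, forward strand: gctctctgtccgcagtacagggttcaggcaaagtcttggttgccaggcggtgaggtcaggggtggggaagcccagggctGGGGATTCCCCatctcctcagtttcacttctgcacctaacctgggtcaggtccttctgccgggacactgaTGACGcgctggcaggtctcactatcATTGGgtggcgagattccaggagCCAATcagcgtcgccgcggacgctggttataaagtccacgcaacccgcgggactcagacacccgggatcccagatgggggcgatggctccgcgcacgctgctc
B2m, chr2:122147437-122147736, forward strand: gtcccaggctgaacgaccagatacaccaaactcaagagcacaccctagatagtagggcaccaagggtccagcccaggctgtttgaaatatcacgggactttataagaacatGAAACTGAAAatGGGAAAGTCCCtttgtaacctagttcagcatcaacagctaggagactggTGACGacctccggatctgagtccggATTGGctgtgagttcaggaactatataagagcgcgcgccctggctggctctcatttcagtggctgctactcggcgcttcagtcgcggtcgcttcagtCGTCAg
Tap1, chr17:34187306-34187605, forward strand: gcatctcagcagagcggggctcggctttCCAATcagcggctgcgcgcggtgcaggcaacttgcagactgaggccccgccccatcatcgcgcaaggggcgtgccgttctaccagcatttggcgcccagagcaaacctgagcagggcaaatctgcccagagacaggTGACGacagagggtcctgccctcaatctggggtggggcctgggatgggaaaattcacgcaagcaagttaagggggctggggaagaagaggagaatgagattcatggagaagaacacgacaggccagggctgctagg
Psmb8, chr17:34197945-34198244, forward strand: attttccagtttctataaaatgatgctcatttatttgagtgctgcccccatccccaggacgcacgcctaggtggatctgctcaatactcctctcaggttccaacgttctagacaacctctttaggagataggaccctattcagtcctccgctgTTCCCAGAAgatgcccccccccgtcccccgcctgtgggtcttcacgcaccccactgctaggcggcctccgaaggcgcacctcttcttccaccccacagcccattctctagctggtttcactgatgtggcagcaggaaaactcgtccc

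In the windows of H2-D1 and B2m the TGACG motif was followed by ATTGG, the Y box on the opposite strand, with 25 bases between their first letters. H2-K1 had the same pair at the same distance in both of its RefSeq windows. This order and distance, which were noticed in these windows and then counted, occurred in 19 of 32817 promoter windows (0.0579%), and the pair at any distance in 1.37%. One further class I gene among the 19 was H2-M3. The TGACG motif alone was in 20.8% of windows, CCAAT in 37.4% and the NF-kB type motif in 20.7%, so these matches alone are common. Tap1 had both TGACG and CCAAT in another order, at -86 and -222 from the start. The interferon-stimulated response element core, which interferon-activated factors bind, was in 3.43% of windows and in that of B2m among the 8 matched genes, starting at -139. TTCNNNGAA was in 8.29% of windows and in that of Psmb8 among the 8. The window of Psmb10 had no match to any of these motifs, and the longer element TGACGTCA, in 1.79% of windows, was in none of the 8 genes' windows. A match is a description of letters and not a site of binding.

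Tap1 (ENSMUSG00000037321, chromosome 17, 34406527 to 34416199, forward strand) and Tap2 (ENSMUSG00000024339, chromosome 17, 34422501 to 34435295, forward strand) encode the subunits of the peptide transporter. Tap1 was at 11.6 and 10.9 FPKM in Jak2WT GLUT1/3 WT, 10.8 and 11.5 in Jak2WT dKO, 32.3 and 31.4 in Jak2V617F GLUT1/3 WT, and 19.4 and 21.1 in Jak2V617F dKO. The Jak2WT groups overlapped, and the Jak2V617F GLUT1/3 WT clones stood above all others. Tap2 was at higher levels, with 26.8 and 25.3 FPKM, 29.5 and 28.01, 77.2 and 72.4, and 38.9 and 38.6 in the groups in the same order. For Tap2 no groups overlapped. Both transporter genes were higher in Jak2V617F among GLUT1/3 WT clones, Tap1 by 1.43 (SE 0.0807) and Tap2 by 1.48 (SE 0.0769), with limma adjusted p = 0.00011 and 8.85e-05.

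Both were lower in dKO in Jak2V617F. The difference was -0.63 for Tap1 (SE 0.0807, limma adjusted p = 0.00194) and -0.93 for Tap2 (SE 0.0769, limma adjusted p = 0.000501). In Jak2WT the dKO difference was -0.01 for Tap1, with a 95% interval from -0.19 to 0.18, and 0.14 for Tap2, with an interval from -0.04 to 0.32. Among dKO clones Jak2V617F still exceeded Jak2WT, by 0.81 for Tap1 (limma adjusted p = 0.00133) and by 0.42 for Tap2 (adjusted p = 0.0124), and the call for Tap2 was lost without either Jak2WT dKO clone, at an adjusted p of up to 0.0793. The ratio of Tap1 to Tap2 FPKM was 0.430 ± 0.00217 in Jak2WT GLUT1/3 WT, 0.389 ± 0.0322 in Jak2WT dKO, 0.426 ± 0.0111 in Jak2V617F GLUT1/3 WT and 0.523 ± 0.0332 in Jak2V617F dKO (mean ± SD, n = 2 clones). Tap1 and Psmb9 lie head to head and overlap by 212 bases in the table's coordinates, and the strand setting of the counting is not stated, so reads in the overlap cannot be assigned with certainty.

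Tapbp (ENSMUSG00000024308, chromosome 17, 34134873 to 34148266, forward strand) encodes tapasin and went the other way between the backgrounds. Its level was 10.11 and 10.09 FPKM in Jak2WT GLUT1/3 WT, 9.997 and 9.68 in Jak2WT dKO, 6.09 and 6.05 in Jak2V617F GLUT1/3 WT, and 6.72 and 9.47 in Jak2V617F dKO. The last pair was the most spread of the 4, with clone 3 near the Jak2WT libraries and clone 1 near the Jak2V617F GLUT1/3 WT clones. Tapbp was lower in Jak2V617F among GLUT1/3 WT clones by -0.65 (SE 0.134, limma adjusted p = 0.0112), a call lost without either Jak2WT GLUT1/3 WT clone, at an adjusted p of up to 0.0603. In Jak2V617F the dKO difference was 0.35 (SE 0.134, limma adjusted p = 0.0905), and it was 0.57 without dKO clone 1, which passed, and 0.13 without dKO clone 3 (adjusted p = 0.00669 and 0.295). Tapbp overlaps Zbtb22 on the same strand by 3422 bases in the table's coordinates, and reads there are shared or dropped in a way the methods do not state.

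**Figure D2:**
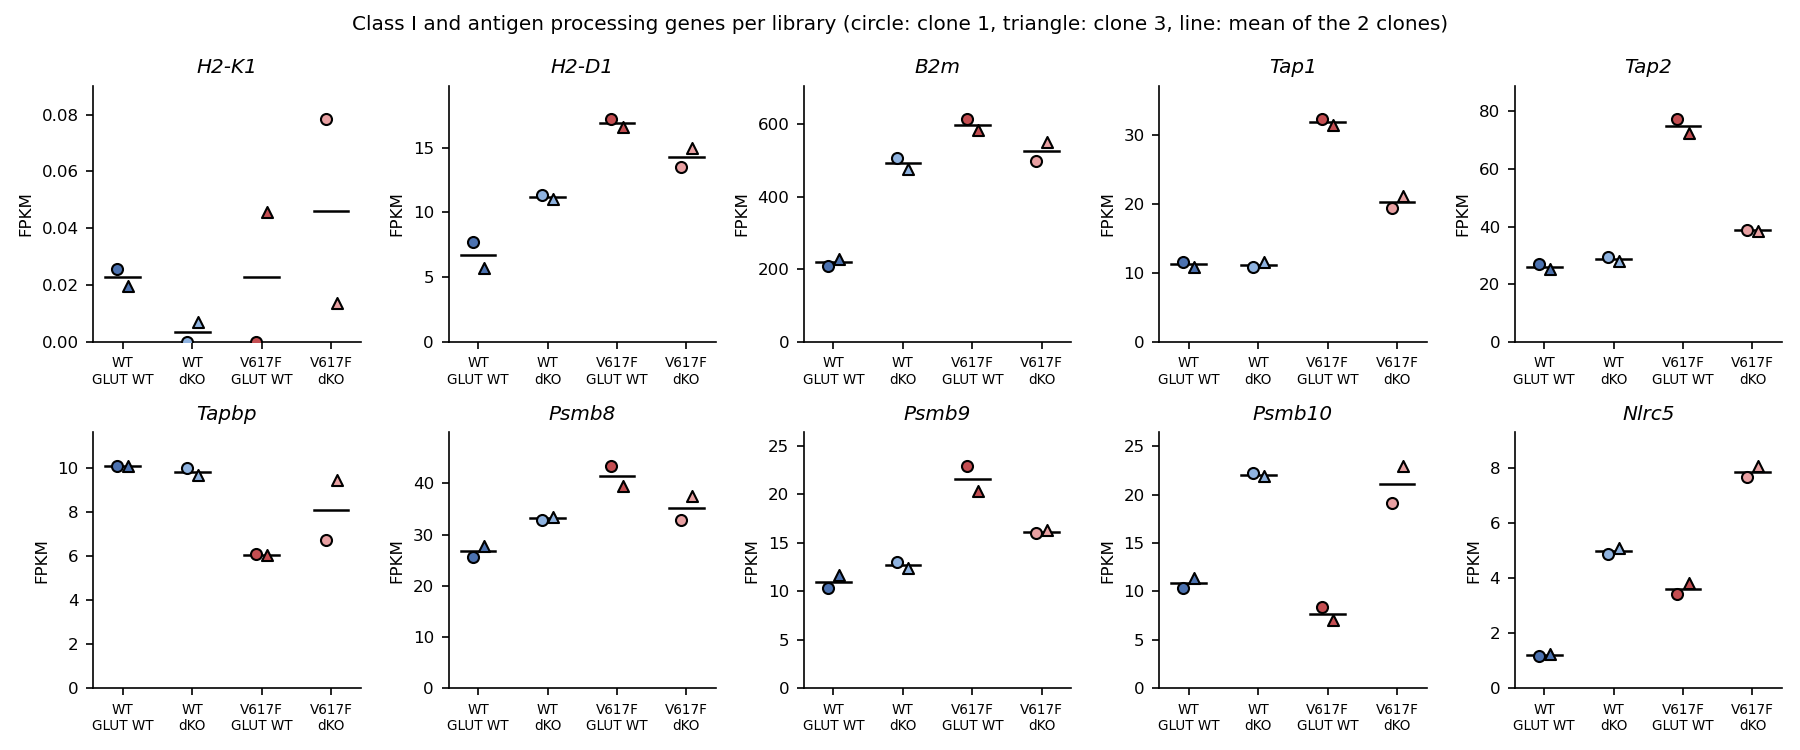
FPKM (y axis, linear from 0, a different range in each panel) of the 10 genes in the 8 libraries by group (x axis), with WT and V617F for the Jak2 background. Circles are clone 1, triangles are clone 3 and lines are the mean of the 2 clones. B2m, H2-D1, Tap1, Tap2, Psmb8 and Psmb9 are highest in Jak2V617F GLUT1/3 WT, Psmb10 is high in both dKO groups, and H2-K1 is at most 0.0783 FPKM.

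Of the immunoproteasome genes, Psmb8 (ENSMUSG00000024338, chromosome 17, 34416695 to 34420428, forward strand), which supplies the chymotrypsin-like subunit, was at 25.6 and 27.9 FPKM in Jak2WT GLUT1/3 WT, 32.9 and 33.5 in Jak2WT dKO, 43.4 and 39.6 in Jak2V617F GLUT1/3 WT, and 32.8 and 37.6 in Jak2V617F dKO. Psmb9 (ENSMUSG00000096727, chromosome 17, 34400961 to 34406738, reverse strand) was at 10.3 and 11.7, 13.1 and 12.4, 22.9 and 20.3, and 16.0 and 16.3 FPKM in the same order. In both genes the Jak2WT GLUT1/3 WT clones were lowest and the Jak2V617F GLUT1/3 WT clones highest, and the dKO groups of Psmb8 overlapped. Among GLUT1/3 WT clones Psmb8 was higher in Jak2V617F by 0.62 (SE 0.096, limma adjusted p = 0.00417) and Psmb9 by 0.91 (SE 0.0936, limma adjusted p = 0.00102). Psmb9 was lower in dKO in Jak2V617F by -0.40 (limma adjusted p = 0.0186), a call lost without Jak2V617F GLUT1/3 WT clone 1 (adjusted p = 0.0899) and without Jak2V617F dKO clone 1 (adjusted p = 0.0588), and also with only the 2 groups compared in the fit (adjusted p = 0.0694). The other dKO differences of the pair did not pass, at 0.30 and -0.23 for Psmb8 and 0.20 for Psmb9 in Jak2WT, but that of Psmb8 in Jak2WT passed with only the 2 groups compared (limma adjusted p = 0.047). Among dKO clones the difference between backgrounds was 0.08 for Psmb8 and 0.32 for Psmb9 (limma adjusted p = 0.619 and 0.0572), and that of Psmb9 passed with the same summed FPKM, with median ratio scaling and with voom (adjusted p = 0.0173, 0.0311 and 0.0112).

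Psmb10 (ENSMUSG00000031897, chromosome 8, 106662367 to 106665076, reverse strand), the trypsin-like immunoproteasome subunit, rose with the loss of the transporters in both backgrounds. It was at 10.4 and 11.4 FPKM in Jak2WT GLUT1/3 WT, 22.2 and 21.9 in Jak2WT dKO, 8.35 and 7.08 in Jak2V617F GLUT1/3 WT, and 19.2 and 22.97 in Jak2V617F dKO. All 4 dKO libraries lay above all 4 GLUT1/3 WT libraries, and the dKO groups overlapped. The dKO difference was 0.96 in Jak2WT (SE 0.114, limma adjusted p = 0.00576) and 1.34 in Jak2V617F (SE 0.114, limma adjusted p = 0.000537). The Jak2WT call was lost without Jak2WT GLUT1/3 WT clone 1 (adjusted p = 0.0543). Among GLUT1/3 WT clones Psmb10 was lower in Jak2V617F by -0.45 (limma adjusted p = 0.0226), a call lost without either Jak2WT clone or without Jak2V617F clone 3, at an adjusted p of up to 0.133, and with no filter on low values (adjusted p = 0.0627).

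The constitutive subunits that these proteins replace were level. Psmb5 ranged from 37.2 to 48.8 FPKM, Psmb6 from 37.0 to 45.8 and Psmb7 from 29.4 to 36.7 over the 8 libraries, and limma called 0 of the 3 in any comparison, as did voom on recovered reads. At an unadjusted p under 0.05 there was 1 difference among them in the 5 comparisons, for Jak2V617F against Jak2WT among dKO clones. The ratio of Psmb8 to Psmb5 FPKM was 0.600 ± 0.0217 in Jak2WT GLUT1/3 WT, 0.706 ± 0.0454 in Jak2WT dKO, 0.993 ± 0.0152 in Jak2V617F GLUT1/3 WT and 0.923 ± 0.123 in Jak2V617F dKO (mean ± SD, n = 2 clones). The ratio of Psmb9 to Psmb6 was 0.271 ± 0.0152, 0.337 ± 0.0015, 0.533 ± 0.0267 and 0.373 ± 0.0243 in the same order. That of Psmb10 to Psmb7 was 0.314 ± 0.00345, 0.667 ± 0.0132, 0.229 ± 0.00488 and 0.663 ± 0.0149. The means of the first 2 ratios were highest in Jak2V617F GLUT1/3 WT, the group in which the last was lowest, and for Psmb8 to Psmb5 the Jak2V617F groups overlapped.

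**Figure D3:**
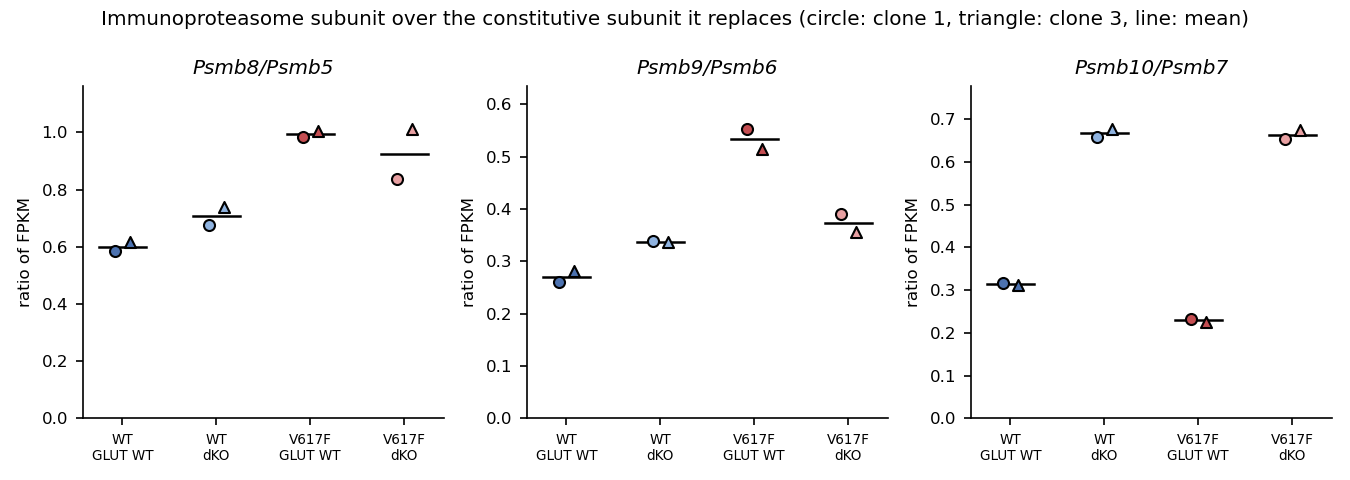
Ratio of the FPKM of each immunoproteasome subunit to that of the constitutive subunit it replaces (y axis, linear from 0) in the 8 libraries by group (x axis). Circles are clone 1, triangles are clone 3 and lines are means of the 2 clones. Psmb10/Psmb7 has means of 0.667 and 0.663 in the dKO groups and of 0.314 and 0.229 in the GLUT1/3 WT groups, while Psmb9/Psmb6 is highest in Jak2V617F GLUT1/3 WT.

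Nlrc5 (ENSMUSG00000074151, chromosome 8, 95160984 to 95253900, forward strand), the class I transactivator, was the least abundant of the 9 tested genes in every library but Jak2V617F dKO clone 1, where Tapbp was lower, and the one whose group means were furthest apart. It was at 1.17 and 1.24 FPKM in Jak2WT GLUT1/3 WT, 4.87 and 5.08 in Jak2WT dKO, 3.43 and 3.81 in Jak2V617F GLUT1/3 WT, and 7.66 and 8.08 in Jak2V617F dKO. No groups overlapped, and the highest group mean was 6.54 times the lowest. It was higher in dKO by 1.44 in Jak2WT (SE 0.0886, limma adjusted p = 0.00067) and by 0.94 in Jak2V617F (SE 0.0886, limma adjusted p = 0.000707). Jak2V617F exceeded Jak2WT by 1.07 among GLUT1/3 WT clones (limma adjusted p = 0.000505) and by 0.57 among dKO clones (limma adjusted p = 0.00672), the latter call being lost without Jak2WT dKO clone 1 (adjusted p = 0.0578). The class I genes H2-T10, H2-T22 and H2-T24 had their group means in the same order as Nlrc5, and none of the other 8 tested genes of the set did. The middle groups of H2-T24 overlapped. H2-Q1, H2-Q4, H2-T23, H2-M3 and Mr1 did not have this order. It was not particular to class I genes, since the interferon-stimulated genes Isg15, Oas1a, Oas2 and Irgm1 had it too. Bst2, Gbp7, Ifi47 and Ifit2 were among the interferon-stimulated genes that did not. In Jak2V617F dKO Nlrc5 was at its highest and Psmb10 was higher than in Jak2V617F GLUT1/3 WT, while Tap1 and Tap2 were lower than in Jak2V617F GLUT1/3 WT and H2-D1 and B2m differed from it by -0.23 and -0.19.

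The interaction compares the dKO difference in Jak2V617F with that in Jak2WT. It was negative and called for 7 of the 9 tested genes, where 10.6% of all tested genes were called in either direction, and the median was -0.60 against -0.04 over all tested genes. The values were -1.36 for B2m (SE 0.129, limma adjusted p = 0.00867) and -1.07 for Tap2 (SE 0.109, limma adjusted p = 0.00867). H2-D1 stood at -0.91 (limma adjusted p = 0.0269), Tap1 at -0.62 (limma adjusted p = 0.0214) and Psmb9 at -0.60 (limma adjusted p = 0.0352). Psmb8 at -0.54 and Nlrc5 at -0.50 were close to the threshold (limma adjusted p = 0.0484 and 0.0480). Tapbp and Psmb10, at 0.38 each, did not pass (limma adjusted p = 0.221 and 0.16).

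The number of these interaction calls moved with the filter and with single libraries. With all libraries kept and no filter on low values, limma called 3 of the 9, B2m, Tap1 and Tap2. Without Jak2WT GLUT1/3 WT clone 3, limma called 0 of the 9, with 7 at an unadjusted p under 0.05, and 4 genes of the whole table. Without any other single library it called 2 to 5 of the 9, with 7 to 9 at an unadjusted p under 0.05. Without Jak2WT GLUT1/3 WT clone 3 the values were -1.41 for B2m and -1.03 for Tap2 (limma adjusted p = 0.0526 for each). Voom on recovered reads called 6 of the 9. With libraries scaled to the same summed FPKM the value of Psmb10 was 0.56 and passed (adjusted p = 0.0445), while those of H2-D1, Tap1, Psmb8 and Nlrc5 no longer did. The value of Nlrc5 was -0.36 under that scaling and -0.86 with a pseudocount of 0.1 (limma adjusted p = 0.139 and 0.0223), and that of Psmb8 under that scaling was -0.35 (adjusted p = 0.0939).

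The other class I genes include the nonclassical molecules encoded by the H2-T, H2-Q and H2-M loci. Of 20 listed, 8 passed the filter and 12 stayed under 1 FPKM in every library, so the counts that follow are over those 8. In dKO 6 were higher and 1 lower in Jak2WT, and 4 were higher and 2 lower in Jak2V617F. Between the backgrounds 7 were higher and 1 lower in Jak2V617F among GLUT1/3 WT clones, and 4 were higher and 1 lower among dKO clones. Of all tested genes 7.62% were higher and 6.06% lower in dKO in Jak2WT, and 13.7% and 16.2% in dKO in Jak2V617F. Between the backgrounds the shares were 15.3% and 14.9% among GLUT1/3 WT clones and 7.12% and 9.96% among dKO clones. H2-T24 was at 10.7 and 11.2 FPKM in Jak2WT GLUT1/3 WT, 25.1 and 22.8 in Jak2WT dKO, 24.0 and 19.2 in Jak2V617F GLUT1/3 WT, and 54.8 and 43.2 in Jak2V617F dKO. Its dKO difference was 1.06 in Jak2WT and 1.145 in Jak2V617F (limma adjusted p = 0.00753 and 0.00172). H2-T23, which encodes Qa-1, a ligand of natural killer cell receptors, rose in dKO by 0.66 and 0.44 (limma adjusted p = 0.0163 and 0.029).

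H2-M3, which presents formylated peptides, went in opposite directions in the backgrounds. It was higher in dKO in Jak2WT by 0.47 and lower in Jak2V617F by -0.36 (limma adjusted p = 0.019 and 0.0232), and its interaction was -0.83 (limma adjusted p = 0.0155). Jak2V617F exceeded Jak2WT by 0.44 among GLUT1/3 WT clones, and among dKO clones H2-M3 was lower in Jak2V617F by -0.40 (limma adjusted p = 0.0113 and 0.0254). Mr1, which presents vitamin B metabolites, was at 2.255 and 2.197 FPKM in Jak2WT GLUT1/3 WT and 0.726 to 1.2 FPKM in the other 6 libraries. Its dKO difference in Jak2WT was -0.85 (limma adjusted p = 0.00883). Many of these loci are near copies of each other, and the same limit on read assignment holds for them.

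The other genes of peptide supply and loading were 17, all tested. In dKO 7 were higher and 1 lower in Jak2WT, and 6 were higher and 1 lower in Jak2V617F, where 7.62% and 6.06%, and 13.7% and 16.2%, of all tested genes were. Those with the largest rise encode chaperones and oxidoreductases of the endoplasmic reticulum. Hspa5, encoding the chaperone BiP, was higher in dKO by 1.40 and 1.51 in Jak2WT and Jak2V617F (limma adjusted p = 0.00165 and 0.00039). Calr, which encodes the loading complex chaperone calreticulin, was higher by 1.12 and 1.25, and Pdia3, its partner oxidoreductase, by 0.97 and 0.99. Pdia6, which encodes another protein disulfide isomerase, was higher by 1.14 and 0.97 (limma adjusted p = 0.00334 and 0.00135). Erap1, the aminopeptidase that trims peptides after transport, was higher in dKO in Jak2WT by 0.80 (limma adjusted p = 0.0126), with 0.05 in Jak2V617F. Npepps, a cytosolic aminopeptidase, was lower in dKO by -0.71 and -1.003 (limma adjusted p = 0.00807 and 0.00086). Psme1, a subunit of the proteasome activator PA28, was higher in dKO in Jak2WT by 0.48 (limma adjusted p = 0.037), and its partner Psme2 differed by 0.18. Between the backgrounds 2 of the 17 were higher and 2 lower in Jak2V617F among GLUT1/3 WT clones, and 2 were higher and 3 lower among dKO clones. The shares over all tested genes were 15.3% and 14.9%, and 7.12% and 9.96%, and nothing is read from these counts. Calr was lower in Jak2V617F in the 2 comparisons by -0.999 and -0.87 (limma adjusted p = 0.00241 and 0.00633).

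Genes stimulated by interferon had higher summed levels in the dKO libraries of both backgrounds. The summed FPKM of the 24 ran from 62.2 to 73.0 in Jak2WT GLUT1/3 WT, 143 to 149 in Jak2WT dKO, 85.0 to 85.5 in Jak2V617F GLUT1/3 WT and 186 to 209 in Jak2V617F dKO. No groups overlapped. Of the 24, 16 passed the filter, but Irf7, Usp18 and Xaf1 did so only through dKO libraries. Mx1 and Oasl2 did so only through the Jak2V617F dKO libraries, and Ifit1 would not have passed without them. For this reason no count of calls over the 16 is given. Bst2, a large part of these sums, was at 23.2 and 29.3 FPKM in Jak2WT GLUT1/3 WT and 64.2 and 56.1 in Jak2WT dKO. The means of Ifit1 and Rsad2 were not higher in Jak2WT dKO than in Jak2WT GLUT1/3 WT. Irf7, a factor that amplifies the interferon response, was at 0.508 and 0.611 FPKM in Jak2WT GLUT1/3 WT, 4.46 and 4.21 in Jak2WT dKO, 0.680 and 0.853 in Jak2V617F GLUT1/3 WT, and 3.09 and 5.74 in Jak2V617F dKO. Of the 9 tested genes of the set, Psmb10 and Nlrc5 were also higher in dKO in both backgrounds, and Tap1, Tap2 and Psmb9 were lower in dKO in Jak2V617F. The part of the interferon-stimulated genes in any of these results was not tested.

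**Figure D4:**
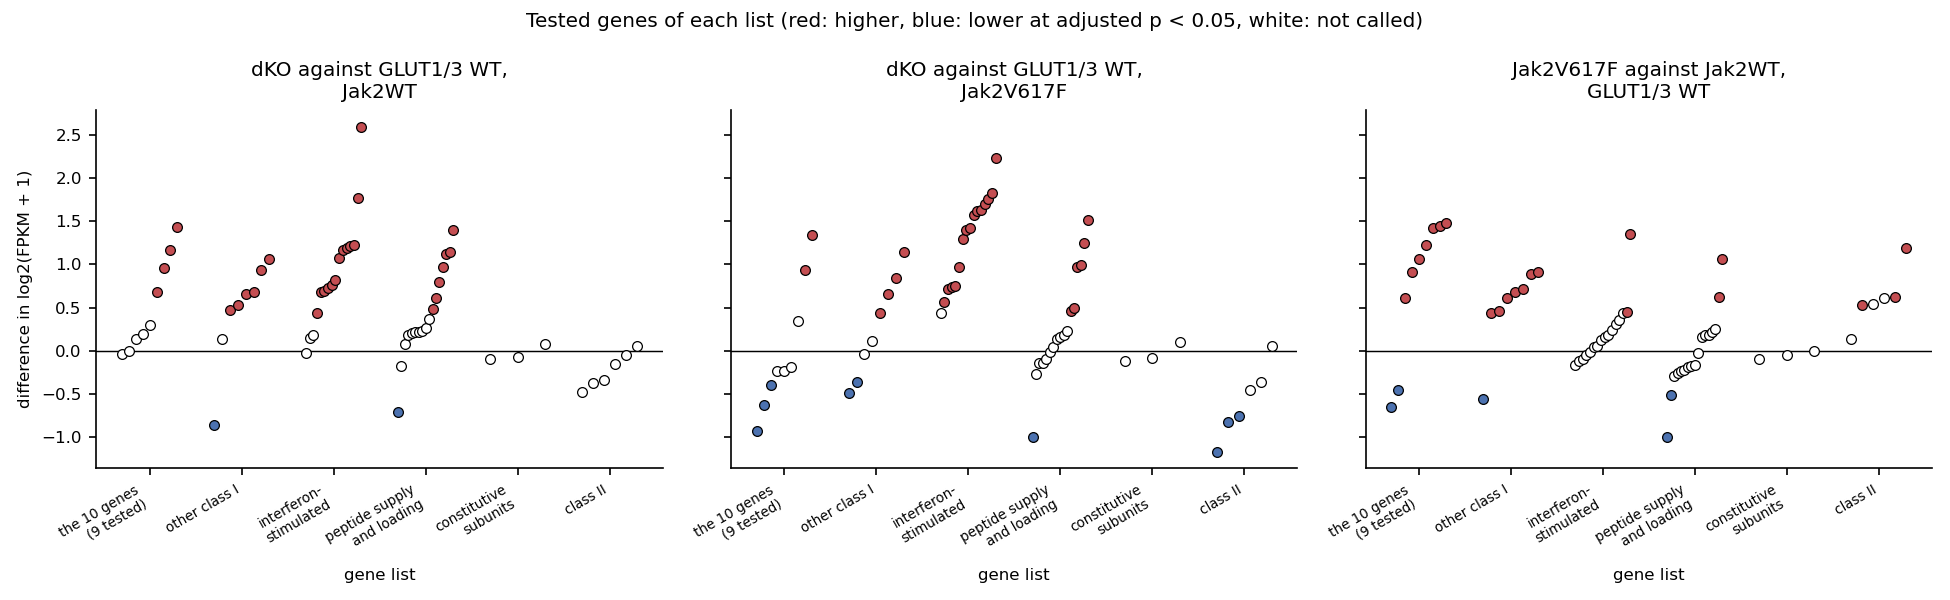
Differences in log2(FPKM + 1) (y axis) of the tested genes of 6 lists (x axis) for dKO against GLUT1/3 WT in Jak2WT and Jak2V617F and for Jak2V617F against Jak2WT among GLUT1/3 WT clones. Each point is 1 gene, ordered within its list, in red where higher and in blue where lower at an adjusted p under 0.05 from limma. Several interferon-stimulated genes passed the filter only through dKO libraries, so their red points for dKO follow in part from the filter. For Jak2V617F among GLUT1/3 WT clones 7 of the 9 points of the set and 7 of the 8 points of the other class I genes are red.

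The genes that carry interferon and NF-kB signals to these promoters held calls in both directions, as did the whole table. Of 17 tested, 2 were higher and 1 lower in dKO in Jak2WT, where 7.62% and 6.06% of all tested genes were. In dKO in Jak2V617F 5 were higher and 5 lower, against 13.7% and 16.2% of all tested genes, and in Jak2V617F among GLUT1/3 WT clones 3 were higher and 3 lower, against 15.3% and 14.9%. Among dKO clones 2 were higher and 5 lower in Jak2V617F, against 7.12% and 9.96%, the 5 being Jak1, Nfkb1 and the interferon receptor genes Ifngr1, Ifngr2 and Ifnar1. Irf9, the DNA-binding subunit of the factor that type I interferons activate, was higher in dKO by 0.78 and 0.75 (limma adjusted p = 0.0141 and 0.0068). Irf1, a main activator of class I genes, was between 1.49 and 3.10 FPKM in all libraries, with a difference of -0.45 for Jak2V617F among GLUT1/3 WT clones (limma adjusted p = 0.0586). Socs1, an inhibitor of this signalling, was at 2.36 and 3.43 FPKM in Jak2WT GLUT1/3 WT and 0.145 and 0.311 FPKM in Jak2V617F GLUT1/3 WT (difference -1.66, limma adjusted p = 0.002). Stat3 was higher in Jak2V617F among GLUT1/3 WT clones by 0.80 and the interferon receptor gene Ifnar2 by 0.70 (limma adjusted p = 0.00177 and 0.00261), and Ifnar2 was lower in dKO in Jak2V617F by -0.59 (limma adjusted p = 0.00453). Levels of Irf2, Rela and Relb were also higher in both Jak2V617F GLUT1/3 WT clones than in Jak2WT, and those of Nfkb1, Ifngr1, Ifngr2 and Jak1 were lower. Nfkb1 was at 18.41 and 21.55 FPKM in Jak2WT GLUT1/3 WT and 11.97 and 11.52 in Jak2V617F GLUT1/3 WT. In the same order Ifngr2 was at 7.88 and 6.95 against 4.47 and 4.12 FPKM. The part of these input genes in the class I results was not tested.

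Of 12 factors and repressors of class I promoters, 2 were higher and 1 lower in dKO in Jak2WT, 2 higher and 3 lower in dKO in Jak2V617F, and 1 higher and 2 lower in Jak2V617F among GLUT1/3 WT clones. Between the backgrounds among dKO clones limma called 0 of the 12, with 6 at an unadjusted p under 0.05 and 2 called by voom. The shares over all tested genes are those just given, and nothing is read from these counts. Nfya, a subunit of the Y box factor NF-Y, was higher in dKO by 0.70 and 0.54 (limma adjusted p = 0.0103 and 0.0107), and Creb1, which binds TGACG motifs, lower by -0.35 and -0.44 (limma adjusted p = 0.0354 and 0.00887). Rfx5, the X box factor on which Nlrc5 depends, was lower in dKO in Jak2V617F by -0.50 (limma adjusted p = 0.0459). Ezh2, a methyltransferase that can silence class I genes, was lower in Jak2V617F among GLUT1/3 WT clones by -0.40 (limma adjusted p = 0.0271), with 33.2 and 32.6 FPKM in Jak2WT and 25.7 and 23.9 in Jak2V617F. Ezh1, of the same list, was higher there, at 12.4 and 10.9 FPKM against 7.79 and 7.07 in Jak2WT. Eed was at 20.1 and 20.5 FPKM against 20.6 and 20.3, and Suz12 at 89.2 and 82.8 against 89.5 and 89.4. The part of these genes in the class I results was not tested.

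The class II genes of the H2 loci lie on chromosome 17, as Tap1 and Tap2 do. Ciita is on chromosome 16 and Cd74 on chromosome 18. The class II transactivator gene Ciita and the chains H2-Aa, H2-Ab1, H2-Eb1 and H2-Eb2 were at or near 0 in every library. Cd74, H2-DMb1, H2-DMb2, H2-Oa and H2-Ob had their highest group mean in Jak2V617F GLUT1/3 WT, as did Tap1, Tap2 and Psmb9. H2-DMa had its highest mean in Jak2V617F dKO. The means of H2-DMb1 were 6.76 FPKM in Jak2WT GLUT1/3 WT, 6.01 in Jak2WT dKO, 10.2 in Jak2V617F GLUT1/3 WT and 5.68 in Jak2V617F dKO. Of the 6 class II genes that were tested, 3 were higher in Jak2V617F among GLUT1/3 WT clones and 3 were lower in dKO in Jak2V617F, where 15.3% and 16.2% of all tested genes were. H2-Ob was 1 of the 3 each time and passed the filter only through the Jak2V617F GLUT1/3 WT libraries, so its calls there follow from the filter. For dKO in Jak2WT, and also between the backgrounds among dKO clones, limma called 0 of the 6, with 1 at an unadjusted p under 0.05 and 2 called by voom. H2-Ob, next to Tap2, was at 2.47 and 2.49 FPKM in Jak2V617F GLUT1/3 WT and between 0.121 and 0.699 FPKM in the other 6 libraries.

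Markers of other cell types moved with some of these results. The summed FPKM of 8 erythroid genes, 4 of them globins, was 93.9 to 112 in Jak2WT GLUT1/3 WT, 246 to 290.4 in Jak2WT dKO, 553 to 910.4 in Jak2V617F GLUT1/3 WT and 2582 to 4678 in Jak2V617F dKO. The summed FPKM of 12 myeloid progenitor genes was lowest in Jak2V617F dKO, at 145 to 147, against 308 to 501 elsewhere, and 4 of its 6 tested genes were lower in dKO in Jak2V617F, where 16.2% of all tested genes were. For dKO in Jak2WT limma called 0 of these 6, with 5 at an unadjusted p under 0.05 and 3 called by voom. Of 8 macrophage and dendritic cell markers, 6 were under 1 FPKM in every library, and the summed level, mostly Adgre1, was 21.97 to 26.45 FPKM in Jak2V617F dKO and 52.2 to 72.9 FPKM elsewhere. Of 4 megakaryocyte genes the summed FPKM was 61.3 to 87.1 in the Jak2WT libraries and 169 to 231 in the Jak2V617F libraries, of 4 mast cell genes 51.0 to 101 and at most 1.67, and of 4 B cell genes between 4.82 and 9.32 in all. All 6 markers of T and natural killer cells and all 4 stromal markers were under 1 FPKM in every library. In these bulk libraries a change in the share of cells and a change in RNA per cell cannot be told apart, and the part of these marker genes in the class I results was not tested.

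Some genes outside the pathway had profiles close to those of the set over the 8 libraries, by Pearson correlation of log2(FPKM + 1). The libraries fall into 4 groups, so the correlation mostly compares 4 group levels and is given as a description. The profile closest to B2m was that of Zfp36l2 (r = 0.995), followed by Rpl13a and Gm10275 (r = 0.990 and 0.988). The closest to Tap1 were Ercc5, Nol4l and Slu7 (r = 0.992, 0.992 and 0.990), and to Psmb8 Ltv1, Igbp1 and Rpusd4 (r = 0.993, 0.988 and 0.987). For Nlrc5 they were Trim30a and Ifi27, both known to be induced by interferon, and the class I gene H2-T22 (r = 0.985, 0.984 and 0.984). H2-T22 was at 4.73 and 4.76 FPKM in Jak2WT GLUT1/3 WT, 9.89 and 10.12 in Jak2WT dKO, 8.38 and 7.98 in Jak2V617F GLUT1/3 WT, and 14.9 and 12.2 in Jak2V617F dKO.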

How the data were processed

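RNA sequencing of 8 libraries of 32D cells was analysed, with 2 clones in each of 4 groups taken from the sample labels, and 0 columns were left out. The authors deposited FPKM values per gene, with genes at 0 included. Per the labels, alignment was to mm39 with HISAT2 (2.2.1) after trimming by fastp (1.0.1), and featureCounts (2.0.6) assigned reads to genes. The annotation version, the strand setting, the total behind the deposited FPKM and the authors' test are not given in the sources used here.

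Values were taken as log2(FPKM + 1). Only genes that reached 1 FPKM in 2 or more libraries were tested (11818). A limma model (3.58.1, R 4.3.3) had 1 mean for each group and a trend of the spread on level, with 4 residual and 3.34 prior degrees of freedom. It gave 5 comparisons: the dKO difference within each background, the difference between backgrounds within each GLUT1/3 genotype, and the interaction. P-values are two-sided with Benjamini-Hochberg adjustment across the 11818 genes and a threshold of 0.05.

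In each library FPKM times gene length gave whole multiples of 1 step (100% of values above 0, within 0.01), and so reads per gene. These gave the depth, 16846011 to 48884329 reads per library, and entered voom. The number of clones limits the precision.

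The named genes are the 10 genes, the genes of the lists, the 3 genes most correlated with B2m, Tap1, Psmb8 and Nlrc5, and Slc2a1, Slc2a3 and Jak2. The 10 genes and the lists were chosen with earlier results of these data known. A further transgene that all groups carry and 1 gene of the lists are not reported here by name. Alternatives changed the pseudocount to 0.1, dropped the filter or applied it to the mean, dropped the trend, scaled libraries to the same summed FPKM or by median ratio, used voom, fitted only the 2 groups compared, added a replicate block, or left out each library. The fit was checked on simulated counts. Promoter windows came from RefSeq, GRCm38.p6. Motifs were searched and figures drawn with Python 3.11.15 and matplotlib 3.10.9.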

Additional observations from a re-analysis of the deposited data

Results flagged for a closer look

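The dKO difference differed between the Jak2 backgrounds, by limma's test of the interaction, for 7 of the 9 tested genes, where 10.6% of all tested genes were called. Without Jak2WT GLUT1/3 WT clone 3 limma called 0 of the 9, with 7 at an unadjusted p under 0.05, and voom on all libraries called 6. With no filter on low values and all libraries kept, limma called 3. In log2(FPKM + 1), the difference in Jak2V617F minus that in Jak2WT was -1.36 for B2m, -1.07 for Tap2, -0.91 for H2-D1, -0.62 for Tap1, -0.60 for Psmb9, -0.54 for Psmb8 and -0.50 for Nlrc5. For B2m and H2-D1 the differences in Jak2WT were 1.16 and 0.68, and in Jak2V617F -0.19 and -0.23. For Tap1 and Tap2 they were -0.01 and 0.14 in Jak2WT and -0.63 and -0.93 in Jak2V617F. For Psmb8 and Psmb9 they were 0.30 and 0.20 in Jak2WT and -0.23 and -0.40 in Jak2V617F. Nlrc5 was higher in dKO in both backgrounds, by 1.44 and 0.94.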

How the results depend on the processing

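With 2 clones a group, calls rest on a model whose spread is pooled over the groups and shared in part over genes. Under the settings that kept all libraries, none of 396 single-gene differences changed direction, 17 lost their call and 5 gained one. With 1 library left out, 4 of 360 changed direction, 49 lost their call and 3 gained one. Those that changed direction were small and not called: the dKO difference of Tap1 in Jak2WT ran from -0.0487 to 0.0372, and among dKO clones the difference between backgrounds ran from -0.19 to 0.0563 for Psmb10 and from -0.0164 to 0.17 for Psmb8. The cause of these changes was not tested. The number of genes called for dKO in Jak2WT, 1617, became 714 with no filter and 2615 with voom. For dKO in Jak2V617F, 3533 became 1617 with only the 2 groups compared, and for Jak2V617F among dKO clones 2019 became 1028. For the interaction, 1256 became 346 with no filter and 1908 with voom, and the 7 genes of the set called became 3 with no filter and 4 with the same summed FPKM. With 1 library left out, the genes called ranged from 106 to 1990 for dKO in Jak2WT, with 106 and 149 without Jak2WT GLUT1/3 WT clones 1 and 3 and 213 and 275 without the dKO clones. They ranged from 2112 to 2995 for dKO in Jak2V617F, lowest without Jak2V617F GLUT1/3 WT clone 1. Among GLUT1/3 WT clones they ranged from 1560 to 3972, with 1668 and 1560 without Jak2WT clones 1 and 3 and 2297 without Jak2V617F clone 1. Among dKO clones they ranged from 618 to 1959, with 618 and 810 without Jak2WT clones 1 and 3 and 1129 without Jak2V617F clone 1, and genes of the set called from 1 to 4, with 1 without Jak2WT dKO clone 1. For the interaction they ranged from 4 to 1258, with 63 and 4 without Jak2WT GLUT1/3 WT clones 1 and 3, 120 and 532 without the Jak2WT dKO clones and 356 and 749 without the Jak2V617F GLUT1/3 WT clones. Genes of the set called in the interaction ranged from 0 to 5: 3 and 0 without Jak2WT GLUT1/3 WT clones 1 and 3, 2 without either Jak2WT dKO clone, 2 and 4 without the Jak2V617F GLUT1/3 WT clones, and 4 and 5 without the Jak2V617F dKO clones.

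The clone numbers did not pair the libraries: deviations of same-numbered clones correlated between -0.25 and 0.15 over the pairs of groups. With the number as a replicate block, 4 genes of the set were called in the interaction, Psmb8, Psmb9 and Nlrc5 no longer passing, and no other call on a gene of the set changed.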
